A study of Mus musculus with 8 samples.

Results

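The 8 genes described here encode ligands of the TNF superfamily that helper T cells make: Tnf, Lta, Ltb, Cd40lg, Fasl, Tnfsf8, Tnfsf11 and Tnfsf14. They were chosen by gene symbol, and all 8 of the 8 symbols sought stood in the deposited table, each on a line of its own, among 11824 symbols. The mice were of the BALB/cAJcl strain, and RNA came from CD44+ CD4+ T cells, which are antigen-experienced helper T cells, of skin-draining lymph nodes. The cells of every group were restimulated with PMA and ionomycin for 2 hours, a treatment that bypasses the T cell receptor. The groups were T-bet-/- STAT6-/- mice (double-null), STAT6-/- mice (STAT6-null), T-bet-/- mice (T-bet-null) and wildtype mice (WT), with 2 libraries each. The labels describe the alleles no further, and they give neither the age nor the number of animals behind a library. Levels are in FPKM, fragments per kilobase of transcript, scaled to the mapped fragments of each library, so levels of different genes can be compared per length.

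TNF superfamily ligands are mostly made as trimeric membrane proteins, some of which are shed, and they act on receptors of the TNF receptor superfamily that signal through TRAF adaptors or death domains. In helper T cells most of them are induced within hours of activation, and they carry help to B cells, dendritic cells, macrophages and stroma or kill target cells. T-bet, encoded by Tbx21, directs Th1 cells, and STAT6 carries the signals of IL-4 and IL-13 that direct Th2 cells. The comparisons ask how ligand expression in these cells differed when either factor or both were lacking.

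The libraries matched their labels for the targeted genes. Tbx21 stood at 2.09 to 2.49 FPKM in double-null, 92.1 to 102 in STAT6-null, 1.44 to 1.54 in T-bet-null and 30.8 to 31.6 in WT libraries, and Stat6 at 26.9 to 29.6, 29.0 to 31.6, 88.8 to 89.8 and 89.9 to 90.9 FPKM in the same order. All 10 CD4 T cell markers sought had a line in the table and summed to 2887 to 3071 FPKM in double-null, 3306 to 3323 in STAT6-null, 2774 to 2837 in T-bet-null and 3408 to 3474 in WT libraries. Of these, 2 rose and 6 fell in double-null cells against WT (median log2 fold change -0.46), 3 rose and 5 fell in STAT6-null cells (-0.21) and 1 rose and 8 fell in T-bet-null cells (-0.49). Of all genes tested, 34.2% to 36.3% rose and 36.1% to 36.8% fell in these comparisons. Cd4 itself fell by 1.02, 0.66 and 0.77 in double-null, STAT6-null and T-bet-null cells, while Cd44 rose by 0.50, 0.42 and 0.72. Cd8b1 was at 3.02 to 5.60 FPKM over the 8 libraries. The WT libraries stood apart from all mutants, with Pearson r of 0.934 to 0.954 against mutant libraries, 0.983 to 0.989 between mutant genotypes and 0.996 to 0.998 within genotypes. Immediate early genes of activation, 15 of 15 in the table, summed to 9655 to 9676 FPKM in double-null, 9044 to 9998 in STAT6-null, 9092 to 9647 in T-bet-null and 16045 to 16496 in WT libraries. Nr4a1 and Nr4a3 were the largest parts, with means of 4074 and 3237 FPKM in WT. Against WT, 2 of the 15 rose and 11 fell in double-null, 2 and 12 in STAT6-null and 1 and 14 in T-bet-null cells. Ier3 rose in each, by 1.76, 1.68 and 1.67. Myeloid markers, 4 of 10 in the table, summed to 50.9 to 60.6, 72.2 to 73.8, 52.7 to 54.3 and 119.9 to 120.4 FPKM in that order of genotypes, and haemoglobin genes, 2 of 6 erythroid markers, to 2.63 to 4.15, 2.65 to 6.53, 7.36 to 7.48 and 224 to 442 FPKM. The myeloid sum was mostly Ctss, with means of 46.3, 58.4, 49.5 and 108 FPKM in the same order. Lyz2 did not follow it in STAT6-null cells, with means of 8.27, 13.3, 3.04 and 10.0 FPKM. B cell markers, 6 of 8 in the table, summed to 1.90 to 7.53 FPKM over all libraries, stromal and endothelial markers, 2 of 8, to 10.7 to 11.3 FPKM in double-null, 8.15 to 8.78 in STAT6-null, 10.5 to 10.8 in T-bet-null and 24.2 to 26.0 in WT libraries, and none of 6 NK markers had a line in the table. The stromal and endothelial sum was mostly Pecam1, with means of 10.2, 7.91, 10.2 and 24.9 FPKM in that order of genotypes. Col1a1 ran the other way, with means of 0.794, 0.551, 0.427 and 0.222 FPKM. The 4 Y-linked genes measured, a list added after the data were seen, summed to 29.5 to 67.9 FPKM in double-null, 37.3 to 43.2 in STAT6-null, 33.7 to 34.1 in T-bet-null and 104 to 110.0 in WT libraries. The part of these differences in the ligand values below was not tested, and in bulk RNA fewer cells of a type and less RNA per cell cannot be told apart.

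All 8 ligand genes separated the mutants from WT. Tnf, Lta, Ltb, Cd40lg and Fasl were lower in each of the 6 mutant libraries than in both WT libraries, and Tnfsf8, Tnfsf11 and Tnfsf14 were higher in each. Such separation was common: 33.7% of the 10266 genes tested had all mutant libraries below WT and 33.2% had all above. With limma and a Benjamini-Hochberg adjusted p under 0.05, 3 ligand genes were called higher and 3 lower in double-null cells than in WT, against 36.3% and 36.8% of all genes. In STAT6-null cells 2 were called higher and 4 lower, against 35% and 36.1% of all genes, and for T-bet-null cells 3 were higher and 4 lower, against 34.2% and 36.3%. The median log2 fold change of the 8 genes was -0.15 in double-null, -0.24 in STAT6-null and -0.16 in T-bet-null cells, while that of all genes was -0.01, -0.01 and -0.02. These counts lie near the background, so the results are the directions and sizes for single genes. The 3 comparisons with WT share the same WT libraries.

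**Figure D1:**
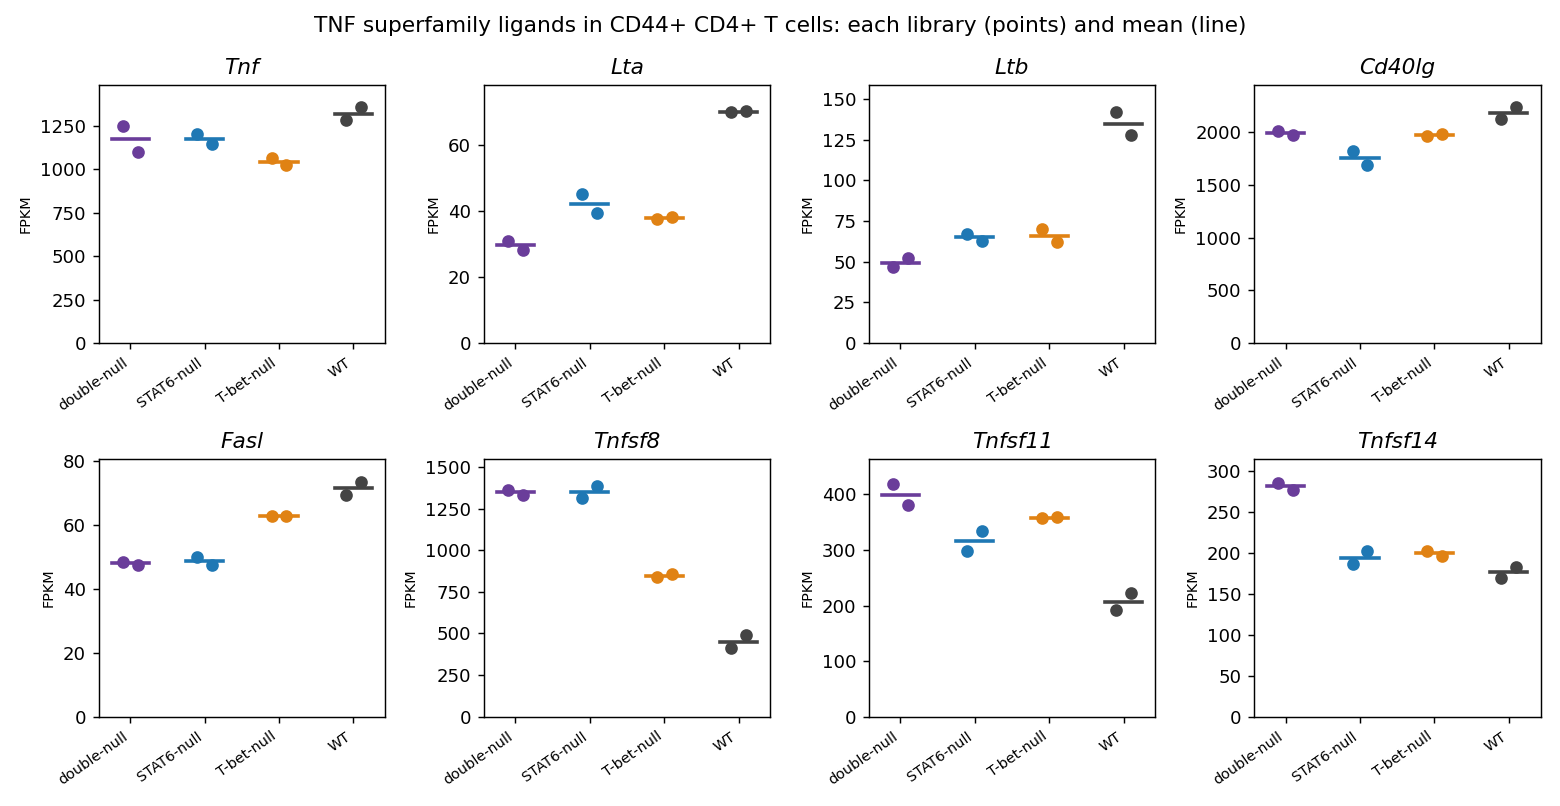
FPKM (vertical axes, each from 0) of the 8 ligand genes in the double-null, STAT6-null, T-bet-null and WT libraries. Points are single libraries, 2 per genotype, and lines are means. Lta and Ltb were highest in WT and lowest in double-null cells, Tnfsf8 was lowest in WT, and Tnfsf14 was highest in double-null cells.

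The TNF locus was described first, because Tnf, Lta and Ltb are neighbours. On mm10 they lie within 11072 bases of chromosome 17, in the major histocompatibility complex: Ltb at chr17:35194507-35196305 on the forward strand, then Tnf at chr17:35199367-35202007 and Lta at chr17:35203165-35205578, both on the reverse strand. Between the gene bodies lie 3061 bases from Ltb to Tnf and 1157 bases from Tnf to Lta. Lta and Ltb each overlap an annotated microRNA gene (Mir6974 and Mir6973a), and Tnf overlaps no other gene of the RefSeq table. TNF is the inflammatory cytokine that acts on TNFR1 and TNFR2. Lymphotoxin alpha, from Lta, binds the same receptors as a secreted homotrimer, and with lymphotoxin beta, from Ltb, it forms a membrane heterotrimer that signals to stromal cells of lymphoid organs through the lymphotoxin beta receptor.

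The 3 promoters are shown because the genes share a locus but moved by different amounts. Each line gives the 250 bases upstream of the start site that the RefSeq promoter table (build GRCm38.p6) uses, 5′ to 3′ on the strand of the gene, for Tnf (chr17:35202008-35202257, reverse strand), Lta (chr17:35205352-35205601, reverse strand) and Ltb (chr17:35194257-35194506, forward strand). Capitals mark matches, on either strand, to the NFAT core GGAAA, the AP-1 sites TGACTCA and TGAGTCA, the T-box core GTGTGA, TTC and GAA separated by 4 bases (the spacing STAT6 prefers), and the NF-kB consensus. The start site used for Lta lies inside its annotated gene body, which holds 227 of the 250 bases, so they are upstream of that start site only. The Tnf and Ltb windows lie outside the gene bodies.
Tnf: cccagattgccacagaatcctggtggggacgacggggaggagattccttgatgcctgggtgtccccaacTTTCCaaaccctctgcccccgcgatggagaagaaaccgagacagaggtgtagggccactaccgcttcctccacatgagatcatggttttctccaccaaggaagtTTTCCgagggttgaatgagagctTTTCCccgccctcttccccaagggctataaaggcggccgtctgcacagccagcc
Lta: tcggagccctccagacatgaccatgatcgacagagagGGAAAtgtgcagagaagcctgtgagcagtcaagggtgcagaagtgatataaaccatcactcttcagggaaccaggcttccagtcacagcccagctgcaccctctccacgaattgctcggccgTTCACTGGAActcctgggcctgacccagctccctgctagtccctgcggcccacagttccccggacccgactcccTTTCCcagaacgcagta
Ltb: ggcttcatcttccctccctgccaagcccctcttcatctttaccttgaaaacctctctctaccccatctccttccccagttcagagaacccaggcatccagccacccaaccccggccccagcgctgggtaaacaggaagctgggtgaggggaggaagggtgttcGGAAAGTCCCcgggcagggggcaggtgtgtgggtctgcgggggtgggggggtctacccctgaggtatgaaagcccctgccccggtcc

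The Tnf promoter had 3 NFAT cores and no match to the other motifs. The Lta promoter had NFAT cores and the spaced STAT6 motif TTCACTGGAA at bases -91 to -82 from the start site. The Ltb promoter had the NF-kB match GGAAAGTCCC at bases -87 to -78, whose first bases are also its NFAT core. Of 32851 promoter windows of the same length, 55.6% held an NFAT core, 4.46% an AP-1 site, 12.3% the T-box core, 5.85% the spaced STAT6 motif and 7.25% the NF-kB consensus. The promoter table held 7 of the 8 ligand genes, and all 7 had an NFAT core, while each other motif was found in 1 of the 7. A match describes the letters only, and no match says nothing of the factor.

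Ltb fell the most of the 3 neighbours. Ltb stood at 46.7 and 52.0 FPKM in the double-null libraries, 67.1 and 62.8 in the STAT6-null, 69.8 and 62.05 in the T-bet-null and 142 and 128 in the WT libraries. The single mutants overlapped each other, all mutants lay below WT, and both double-null libraries lay below every other library. The log2 fold change against WT was -1.43 ± 0.083 (SE, n = 2 per genotype) in double-null (adjusted p = 7.57e-07), -1.04 ± 0.083 in STAT6-null (adjusted p = 6.29e-06) and -1.02 ± 0.083 in T-bet-null cells (adjusted p = 8.07e-06).

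Lta, the other lymphotoxin gene, was also highest in WT and lowest in double-null cells, at lower levels. It stood at 30.8 and 28.2 FPKM in the double-null libraries, 44.9 and 39.2 in the STAT6-null, 37.6 and 38.1 in the T-bet-null and 69.8 and 70.1 in the WT libraries. The T-bet-null libraries lay just below the STAT6-null ones, and no genotype overlapped another. Lta fell by 1.22 on the log2 scale in double-null cells against WT (SE 0.072, adjusted p = 8.26e-07), by 0.72 in STAT6-null (adjusted p = 2.34e-05) and by 0.87 in T-bet-null cells (adjusted p = 8.85e-06).

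Tnf, in the middle of the locus, was far more abundant and moved little. It stood at 1249 and 1099 FPKM in the double-null libraries, 1203 and 1144 in the STAT6-null, 1063 and 1027 in the T-bet-null and 1282 and 1359 in the WT libraries. All mutant libraries were below WT, and the double-null and STAT6-null libraries overlapped. Tnf fell by 0.34 on the log2 scale in T-bet-null cells (SE 0.076, adjusted p = 0.00364). It gave -0.17 in double-null cells (95% interval -0.35 to 0.00226, adjusted p = 0.0696) and -0.17 in STAT6-null cells (-0.34 to 0.00407, adjusted p = 0.0736). Quantile normalization removed the T-bet-null call (-0.17, adjusted p = 0.101). Without double-null replicate 1 the double-null change was called (-0.26, adjusted p = 0.0127), without double-null replicate 2 it was -0.0791 (adjusted p = 0.367), and without double-null replicate 1 or 2 that of STAT6-null cells was called (adjusted p = 0.033 and 0.0334).

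The balance within the locus was described by ratios. Tnf had 40.5 and 39.0 times the FPKM of Lta in the double-null libraries, 26.8 and 29.2 times in the STAT6-null, 28.3 and 26.9 times in the T-bet-null and 18.4 and 19.4 times in the WT libraries. The ratio was thus highest in double-null and lowest in WT cells, and these genotypes overlapped with no other. Lta stood at 0.601 ± 0.0837 times the FPKM of Ltb in double-null, 0.647 ± 0.0312 in STAT6-null, 0.577 ± 0.054 in T-bet-null and 0.52 ± 0.0416 in WT cells (SD, n = 2), a narrower range than that of Tnf to Lta. No test was run on these ratios.

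Cd40lg encodes CD40 ligand, the signal by which helper T cells license B cells and dendritic cells, and lies on the X chromosome (mm10 chrX:57212143-57224042). It was the most abundant of the 8 genes in each genotype, and only 16 of the 10266 genes tested had a higher mean over the 8 libraries. Cd40lg stood at 2014 and 1978 FPKM in the double-null libraries, 1820.5 and 1688 in the STAT6-null, 1961 and 1987 in the T-bet-null and 2129 and 2242 in the WT libraries. STAT6-null libraries were the lowest, and double-null and T-bet-null libraries overlapped. Cd40lg fell by 0.32 on the log2 scale in STAT6-null cells (SE 0.068, adjusted p = 0.00246), which quantile normalization brought to -0.05 (adjusted p = 0.647), no longer called. It gave -0.13 in double-null cells (95% interval -0.28 to 0.0231, adjusted p = 0.11) and -0.15 in T-bet-null cells (-0.30 to 0.00729, adjusted p = 0.0801). With quantile normalization the T-bet-null value had the opposite sign (0.10).

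Fasl encodes Fas ligand, which kills cells that carry Fas and limits T cell responses (mm10 chr1:161780691-161788495). It stood at 48.4 and 47.4 FPKM in the double-null libraries, 49.8 and 47.5 in the STAT6-null, 62.6 and 62.9 in the T-bet-null and 69.3 and 73.3 in the WT libraries. The 4 libraries without STAT6 formed a low group that did not overlap with the 4 that had it. Fasl fell by 0.56 on the log2 scale in double-null (SE 0.053, adjusted p = 1.35e-05), by 0.54 in STAT6-null (adjusted p = 2.1e-05) and by 0.18 in T-bet-null cells (adjusted p = 0.0129). The T-bet-null change was not called when WT replicate 2 was left out (adjusted p = 0.0685), nor without T-bet-null replicate 1 (0.0662) or T-bet-null replicate 2 (0.0624).

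Tnfsf8 encodes CD30 ligand, which acts on CD30 of activated lymphocytes (mm10 chr4:63831202-63861508), and had the largest rise of the 8 genes. Tnfsf8 stood at 1363 and 1332 FPKM in the double-null libraries, 1315 and 1386 in the STAT6-null, 839 and 856 in the T-bet-null and 410.4 and 491 in the WT libraries. The double-null and STAT6-null libraries overlapped at the top, T-bet-null libraries were intermediate and WT libraries lowest. Tnfsf8 rose by log2 1.58 ± 0.084 (SE) in double-null (adjusted p = 4.85e-07), 1.59 in STAT6-null (adjusted p = 7.09e-07) and 0.91 in T-bet-null cells (adjusted p = 1.65e-05). The change in STAT6-null cells was larger in size than that of 98.1% of all genes tested. Tnfsf8 overtook Tnf in the cells without STAT6, with 1.15 ± 0.0851 times the FPKM of Tnf in double-null and 1.15 ± 0.083 in STAT6-null cells, against 0.811 ± 0.0311 in T-bet-null and 0.341 ± 0.0291 in WT cells (SD, n = 2).

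Tnfsf11 encodes RANKL, which drives osteoclast formation and the survival of dendritic cells (mm10 chr14:78277446-78308043). It stood at 419 and 380.5 FPKM in the double-null libraries, 298 and 334 in the STAT6-null, 357 and 359.8 in the T-bet-null and 191 and 222 in the WT libraries. All mutant libraries were above WT, and no genotype overlapped another. Tnfsf11 rose by log2 0.95 ± 0.087 (SE) in double-null (adjusted p = 1.21e-05), 0.61 in STAT6-null (adjusted p = 0.00022) and 0.79 in T-bet-null cells (adjusted p = 4.85e-05).

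Tnfsf14 encodes LIGHT, which binds HVEM on lymphocytes and the lymphotoxin beta receptor on stroma (mm10 chr17:57189474-57194181). It stood at 286 and 277 FPKM in the double-null libraries, 187 and 202 in the STAT6-null, 203 and 197 in the T-bet-null and 169.8 and 183 in the WT libraries. The double-null libraries stood apart above all others, and the single mutants overlapped each other. Tnfsf14 rose by log2 0.67 ± 0.062 (SE) in double-null cells (adjusted p = 1.27e-05) and by 0.18 in T-bet-null cells (adjusted p = 0.028). In STAT6-null cells it gave 0.14 (95% interval -0.00137 to 0.28, adjusted p = 0.0704). The T-bet-null change was not called when WT replicate 1 was left out (0.12, adjusted p = 0.144), nor without T-bet-null replicate 1 (adjusted p = 0.142) or T-bet-null replicate 2 (adjusted p = 0.0718). The STAT6-null change was called without WT replicate 2 (0.20, adjusted p = 0.0357), and was 0.0852 without WT replicate 1 (adjusted p = 0.298) and 0.0826 without STAT6-null replicate 2 (adjusted p = 0.371).

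The promoters of Tnfsf8 and Tnfsf14 are shown because these genes had the largest rise of the 8 and a rise that was larger in double-null cells than in either single mutant. They give the 250 upstream bases of Tnfsf8 (chr4:63861285-63861534, reverse strand) and Tnfsf14 (chr17:57194182-57194431, reverse strand), again from the RefSeq table of GRCm38.p6, with capitals for the same motifs. The Tnfsf8 window likewise lies upstream of a start site inside the gene body, which holds 224 of its 250 bases, and the Tnfsf14 window lies outside.
Tnfsf8: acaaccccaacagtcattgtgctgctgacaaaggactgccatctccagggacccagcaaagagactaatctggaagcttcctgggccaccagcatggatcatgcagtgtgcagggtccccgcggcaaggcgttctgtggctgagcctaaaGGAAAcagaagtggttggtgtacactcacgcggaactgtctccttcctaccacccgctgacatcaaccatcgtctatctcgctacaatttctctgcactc
Tnfsf14: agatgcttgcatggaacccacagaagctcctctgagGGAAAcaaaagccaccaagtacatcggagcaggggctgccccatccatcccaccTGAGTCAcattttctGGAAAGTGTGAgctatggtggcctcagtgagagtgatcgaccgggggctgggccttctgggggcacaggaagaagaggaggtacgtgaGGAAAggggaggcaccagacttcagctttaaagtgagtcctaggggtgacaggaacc

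The Tnfsf8 promoter held 1 NFAT core and no match to the other motifs. The Tnfsf14 promoter held 3 NFAT cores, the AP-1 site TGAGTCA at bases -160 to -154 and the T-box core GTGTGA at bases -140 to -135, which directly follows an NFAT core at bases -145 to -141.

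**Figure D2:**
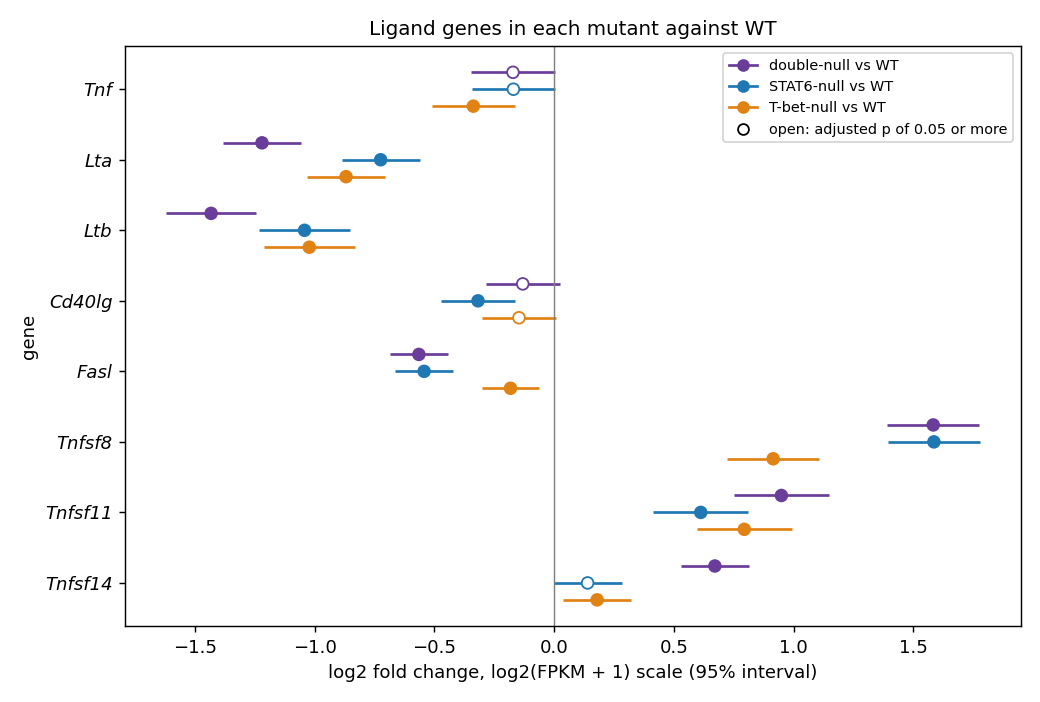
Log2 fold change (horizontal axis, log2(FPKM + 1) scale) of the 8 ligand genes in double-null, STAT6-null and T-bet-null cells against WT. Points are limma estimates, bars are 95% intervals, and open points did not pass an adjusted p of 0.05. Ltb and Lta lie farthest to the left and Tnfsf8 farthest to the right. Tnf is called only in T-bet-null cells (-0.34) and Cd40lg only in STAT6-null cells (-0.32).

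Between the mutants, where WT libraries do not enter the difference, the genes fell into separate patterns. Double-null cells had 2 ligand genes called higher and 3 lower than T-bet-null cells, against 16.4% and 16.2% of all genes. Against STAT6-null cells they had 2 higher and 2 lower (11.2% and 8.64% of all genes), and STAT6-null cells had 1 higher and 1 lower than T-bet-null cells (12.3% and 14.9%). Lta was lower in double-null cells than in STAT6-null (log2 -0.50 ± 0.072 SE, adjusted p = 0.00223) and T-bet-null cells (-0.35, adjusted p = 0.00705). Ltb was lower too, by -0.39 ± 0.083 (adjusted p = 0.0125) and -0.41 (adjusted p = 0.00669) in that order. The first Ltb call was lost without STAT6-null replicate 1 (adjusted p = 0.0965) or double-null replicate 1 (0.0529), and the second without T-bet-null replicate 1 (0.0543). Lta and Ltb did not differ between the single mutants by this test, with 0.14 (95% interval -0.02 to 0.31) and -0.02 (-0.21 to 0.17) in STAT6-null over T-bet-null cells.

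Tnfsf14 was higher in double-null cells than in STAT6-null (log2 0.53 ± 0.062 SE, adjusted p = 0.000736) and T-bet-null cells (0.49, adjusted p = 0.000707), and gave -0.04 (-0.18 to 0.10) between the single mutants. Between the mutants Tnfsf8 and Fasl moved with STAT6 status, though both also changed in T-bet-null cells against WT (0.91 and -0.18). Tnfsf8 was higher in double-null cells than in T-bet-null ones (0.67 ± 0.084, adjusted p = 0.000694) and in STAT6-null cells than in T-bet-null ones (0.67, adjusted p = 0.000616), and gave -0.00281 (95% interval -0.19 to 0.19) in double-null over STAT6-null cells. Fasl was lower by -0.38 ± 0.053 (adjusted p = 0.00109) and -0.36 (adjusted p = 0.00142) in the first and second of these comparisons, and gave -0.02 (-0.14 to 0.10) in the third. Tnfsf11 was higher in double-null than in STAT6-null cells (0.34 ± 0.087, adjusted p = 0.0282), and gave 0.15 (-0.04 to 0.35) against T-bet-null cells and -0.18 (-0.38 to 0.0167) in STAT6-null over T-bet-null cells. That Tnfsf11 call was lost without STAT6-null replicate 1 (0.25, adjusted p = 0.184), double-null replicate 1 (0.27, adjusted p = 0.105) or either T-bet-null library (adjusted p = 0.0501 and 0.0502), and Tnfsf11 was called lower in STAT6-null cells than in T-bet-null ones with quantile normalization (-0.27, adjusted p = 0.0466).

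Tnf and Cd40lg had no called difference between mutants. Tnf gave 0.17 in double-null over T-bet-null cells (95% interval -0.00820 to 0.34, adjusted p = 0.13), which was 0.0732 without double-null replicate 1 (adjusted p = 0.481) and called without double-null replicate 2 (0.26, adjusted p = 0.0462), and -0.00181 (-0.18 to 0.17) over STAT6-null cells. Cd40lg gave 0.19 in double-null over STAT6-null cells (0.0331 to 0.34, adjusted p = 0.0879) and -0.17 in STAT6-null over T-bet-null cells (-0.32 to -0.0173, adjusted p = 0.0928).

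**Figure D3:**
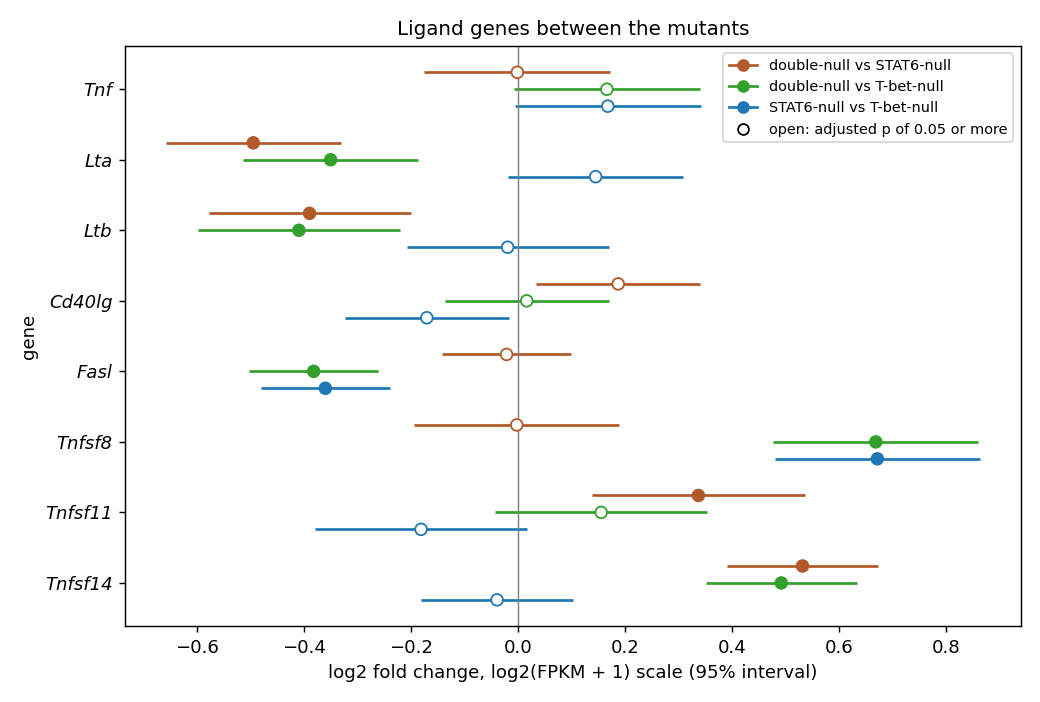
Log2 fold change (horizontal axis, log2(FPKM + 1) scale) of the 8 ligand genes between the mutants, with the group named first over the second. Points are limma estimates with 95% intervals, and open points did not pass an adjusted p of 0.05. Tnfsf8 and Fasl are called where STAT6 status differs and lie near 0 in double-null over STAT6-null cells. Lta, Ltb and Tnfsf14 are called in both comparisons of double-null cells.

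Whether the effects of the losses added up on the log2 scale was tested by the interaction, the change of double-null cells minus the sum of the changes of the single mutants. It was called positive for 5 ligand genes and negative for 2, against 29.6% and 27.7% of all genes tested. A change against WT that all mutants share enters the interaction with its sign reversed. Ltb had a joint change of -1.43 where the single changes summed to -2.06 (interaction 0.63 ± 0.118 SE, adjusted p = 0.00187), and Lta -1.22 where they summed to -1.59 (0.37 ± 0.102, adjusted p = 0.0124). Tnfsf8 had 1.58 where the sum was 2.50 (-0.92 ± 0.119, adjusted p = 0.000291), and Tnfsf11 0.95 where it was 1.41 (-0.46 ± 0.124, adjusted p = 0.0118). In these 4 genes the joint change was smaller in size than the sum. Tnfsf14 had 0.67 where the sum was 0.32 (0.35 ± 0.088, adjusted p = 0.00839), so its joint change was larger than the sum.

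The smaller interactions were those of Tnf (0.34 ± 0.108, adjusted p = 0.0261), Cd40lg (0.33 ± 0.096, adjusted p = 0.0157) and Fasl, which was not called (0.16, 95% interval -0.0101 to 0.33, adjusted p = 0.0965). With quantile normalization Tnf (0.06, adjusted p = 0.696) and Tnfsf14 (0.23, adjusted p = 0.0558) were not called and Cd40lg changed sign (-0.08, adjusted p = 0.604). Without a library, the Tnf call was lost for WT replicate 2 (adjusted p = 0.0591), T-bet-null replicate 1 (0.0575), T-bet-null replicate 2 (0.0936), STAT6-null replicate 2 (0.0964) and double-null replicate 1 (0.06), the Cd40lg call for T-bet-null replicate 1 (0.0641), T-bet-null replicate 2 (0.054) and STAT6-null replicate 2 (0.0812), and the Tnfsf11 call for STAT6-null replicate 2 (-0.38, adjusted p = 0.0506).

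**Figure D4:**
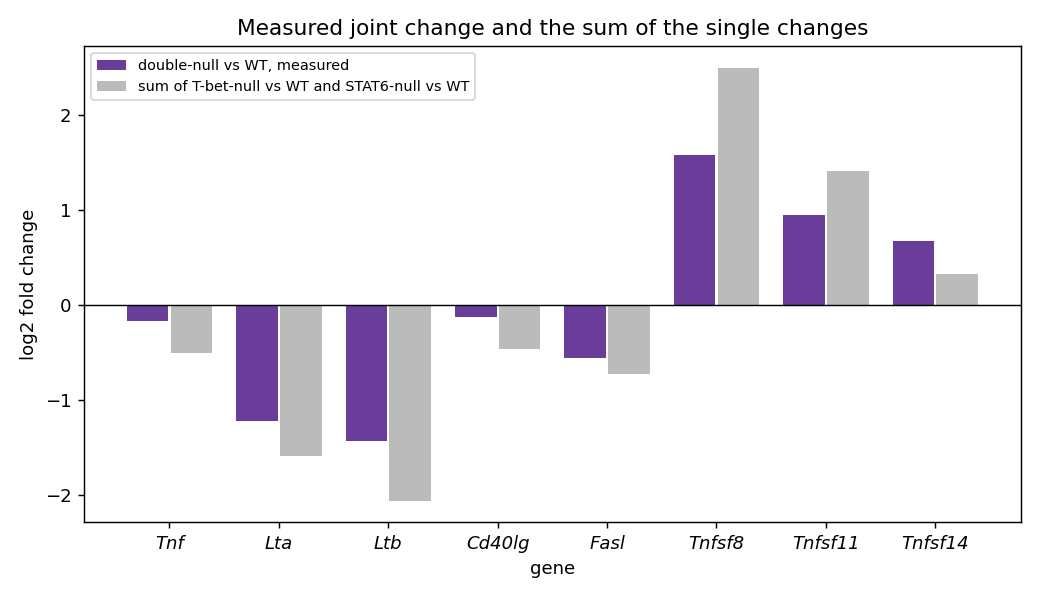
Log2 fold change (vertical axis) of each ligand gene in double-null cells against WT (purple) and the sum of both single-mutant changes against WT (grey). Bars start at 0. The purple bar is shorter than the grey one for every gene except Tnfsf14, where it is 0.67 against 0.32.

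The summed level of the 8 genes was 5457 and 5193 FPKM in the double-null libraries, 4986 and 4905 in the STAT6-null, 4593 and 4589 in the T-bet-null and 4463 and 4769 in the WT libraries, so that T-bet-null and WT libraries overlapped. Cd40lg, Tnf and Tnfsf8 together made up 84.8% ± 0.0783 of it in double-null, 86.5% ± 0.72 in STAT6-null, 84.2% ± 0.151 in T-bet-null and 85.7% ± 0.138 in WT cells (SD, n = 2). Tnfsf8 alone held 25.3% ± 0.466, 27.3% ± 1.32, 18.5% ± 0.269 and 9.75% ± 0.781 in that order of genotypes. Cd40lg held 37.5% ± 0.836 in double-null and 35.5% ± 1.48 in STAT6-null cells, against 43.0% ± 0.421 in T-bet-null and 47.4% ± 0.494 in WT cells. Ltb held 0.929% ± 0.103 in double-null, 1.31% ± 0.0471 in STAT6-null and 1.44% ± 0.119 in T-bet-null cells, against 2.93% ± 0.36 in WT cells.

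**Figure D5:**
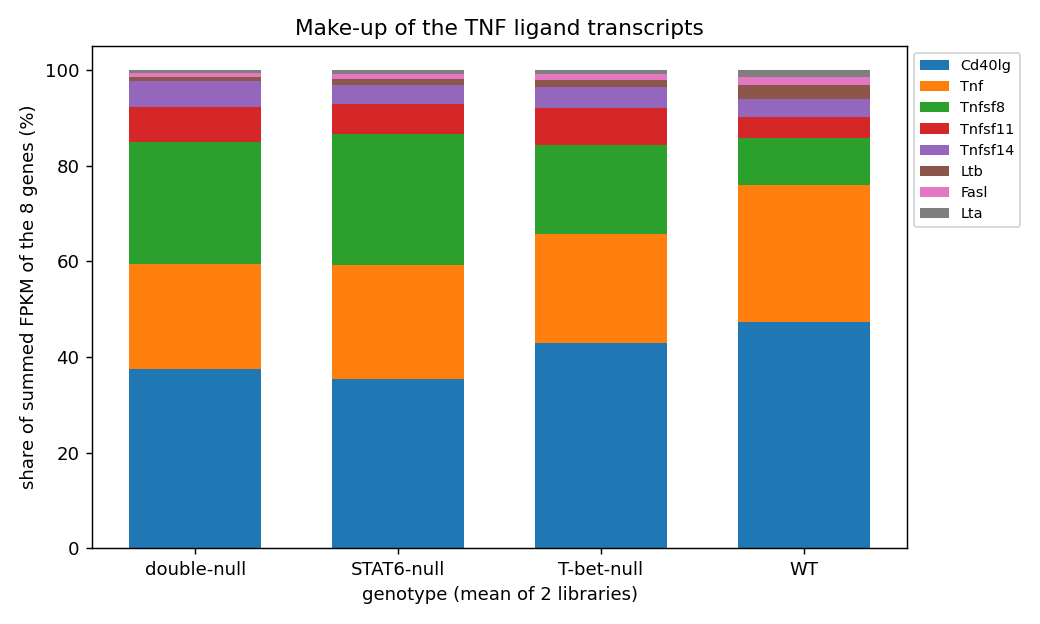
Share of each ligand gene (colours) in the summed FPKM of the 8 genes (vertical axis, percent), as the mean of 2 libraries of double-null, STAT6-null, T-bet-null and WT cells. Tnfsf8 makes up 25.3% in double-null and 27.3% in STAT6-null cells, against 9.75% in WT cells.

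The receptors of these ligands were followed in the same cells, which can be targets as well as sources. Of 10 listed receptors, 7 had a line in the table and 6 passed the filter on low values. Tnfrsf11a, for the RANKL receptor, did not pass, with means of 0.407 FPKM in double-null, 0.317 in STAT6-null, 0.358 in T-bet-null and 0.375 in WT cells. Ltbr, for the lymphotoxin beta receptor, had no line. In double-null cells 3 rose and 3 fell against WT (36.3% and 36.8% of all genes), in STAT6-null cells 2 rose and 1 fell (35% and 36.1%), and in T-bet-null cells 2 rose and 3 fell (34.2% and 36.3%). Such counts of 6 genes lie near the shares of all genes, and the same shares apply to the lists that follow. Tnfrsf1b, which encodes TNFR2, stood at 188 and 191 FPKM in the double-null libraries, 275 and 266 in the STAT6-null, 198 and 191 in the T-bet-null and 392 and 401 in the WT libraries, and fell in each mutant (log2 -1.06 ± 0.051 SE, -0.55 and -1.02, adjusted p = 2.87e-07, 1.50e-05 and 6.04e-07, in double-null, STAT6-null and T-bet-null cells). Tnfrsf1a, for TNFR1, fell in double-null (-0.32) and T-bet-null cells (-0.74) and gave -0.14 in STAT6-null cells (adjusted p = 0.178).

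Tnfrsf8, which encodes CD30, the receptor of the Tnfsf8 product, stood at 6.34 and 10.2 FPKM in the double-null libraries, 3.45 and 2.97 in the STAT6-null, 3.02 and 2.69 in the T-bet-null and 2.87 and 3.52 in the WT libraries. Both double-null libraries lay above all others. Tnfrsf8 rose by log2 1.12 ± 0.176 in double-null cells against WT (SE, adjusted p = 0.000365), by 1.11 against STAT6-null (adjusted p = 0.00338) and by 1.24 against T-bet-null cells (adjusted p = 0.00122). STAT6-null and T-bet-null cells gave 0.00654 and -0.12 against WT. Tnfrsf14, which encodes HVEM, the receptor of the Tnfsf14 product, rose by 0.20 in double-null, 0.65 in STAT6-null and 0.55 in T-bet-null cells. Fas, the receptor of Fas ligand, rose by 0.23, 0.22 and 0.21 in that order. Cd40, the receptor of the Cd40lg product on antigen-presenting cells, was low, at 0.727 and 0.658 FPKM in double-null, 1.87 and 1.32 in STAT6-null, 0.545 and 0.388 in T-bet-null and 2.24 and 1.13 in WT libraries.

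Of 10 other ligands of the family, 5 had a line in the table, and all 5 passed the filter. In double-null cells 1 rose and 2 fell against WT, in STAT6-null cells 3 rose and 2 fell, and in T-bet-null cells none rose and 3 fell. Of all genes tested, 34.2% to 36.3% rose and 36.1% to 36.8% fell. The median change of these 5 ligands was 0.0160, 0.34 and -0.34 in that order of genotypes, and that of all genes was -0.01, -0.01 and -0.02. Tnfsf9, which encodes 4-1BB ligand, was the highest of them, above Ltb, Fasl and Lta in double-null and STAT6-null cells and below all of these in WT, at 65.8 FPKM in double-null, 72.6 in STAT6-null, 43.1 in T-bet-null and 40.5 in WT cells, and rose in double-null (log2 0.69) and STAT6-null cells (0.83) and gave 0.09 in T-bet-null cells (adjusted p = 0.241). Cd70, for the ligand of CD27, rose in STAT6-null cells (0.91) and fell in T-bet-null cells (-0.38). Tnfsf4, for OX40 ligand, fell by 0.69, 0.54 and 0.34 and Tnfsf13b, for BAFF, by 0.69, 0.42 and 0.59 in double-null, STAT6-null and T-bet-null cells, at levels under 5 FPKM. Tnfsf10, for TRAIL, gave 0.02 in double-null cells (adjusted p = 0.89), rose by 0.34 in STAT6-null cells (adjusted p = 0.0112) and gave 0.23 in T-bet-null cells (adjusted p = 0.052).

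Of genes that process the ligands, 5 were tested, and 4 rose and 1 fell in each mutant, where 34.2% to 36.3% of all genes rose and 36.1% to 36.8% fell. Their median log2 fold change was 1.26 in double-null, 0.52 in STAT6-null and 0.70 in T-bet-null cells. Adam17, which encodes the sheddase that releases TNF, fell by 0.49 in double-null, 0.38 in STAT6-null and 0.63 in T-bet-null cells. Rhbdf2, whose product iRhom2 brings that sheddase to the cell surface, rose by 1.37, 1.78 and 1.30, and Adam10, for the sheddase of Fas ligand, by 0.42, 0.47 and 0.45 in the same order. Furin, for the proprotein convertase that activates such sheddases, rose by 1.44 in double-null, 0.93 in STAT6-null and 0.70 in T-bet-null cells, and the metalloprotease gene Adam8 rose by 1.26, 0.52 and 0.89.

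Of 12 genes that act on the stability of such mRNAs, 3 rose and 8 fell in double-null, 3 and 6 in STAT6-null and 3 and 6 in T-bet-null cells, where 34.2% to 36.3% of all genes rose and 36.1% to 36.8% fell. Their medians were -0.31, -0.21 and -0.18. Khsrp, for a binder of AU-rich elements, rose by 0.79, 0.65 and 0.75 in double-null, STAT6-null and T-bet-null cells, while Zc3h12d, for an RNase of the Regnase family, fell by 0.62, 0.34 and 0.73. Zfp36l1, of the tristetraprolin family that destabilises Tnf mRNA, fell by 0.49, 0.63 and 0.62. Zfp36, for tristetraprolin itself, fell by 0.31 in double-null and 0.64 in T-bet-null cells and gave 0.09 in STAT6-null cells (adjusted p = 0.388).

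Of 18 transcription factor genes used by ligand promoters, 2 rose and 14 fell in double-null, 1 and 13 in STAT6-null and 1 and 15 in T-bet-null cells, where 36.8%, 36.1% and 36.3% of all genes fell. Their medians were -0.42, -0.48 and -0.52. Part of this list, with Fosb and Egr3 in it, also stands in the list of immediate early genes above, so those falls are not separate results. The largest falls were those of the immediate early genes Fosb (-1.95, -2.01 and -1.78), Egr3 (-1.92, -1.99 and -1.69) and the AP-1 gene Jund (-1.42, -1.27 and -1.28). Of 14 receptor adaptor and death signalling genes, 7 rose and 4 fell in double-null, 8 and 2 in STAT6-null and 5 and 5 in T-bet-null cells, where 36.3%, 35% and 34.2% of all genes rose and 36.8%, 36.1% and 36.3% fell. Their medians were 0.05, 0.26 and 0.04. Traf3, a brake on noncanonical NF-kB signalling, rose by 0.69, 0.79 and 0.46, and Cflar, for the death inhibitor c-FLIP, by 0.55, 0.71 and 0.31. Traf1, for another adaptor of the TRAF family, fell by 0.44, 0.28 and 0.58, and the related Traf4 fell by 0.56 in double-null and 0.69 in T-bet-null cells and gave -0.19 in STAT6-null cells (adjusted p = 0.0513).

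Genes with the most similar pattern over the 8 libraries were sought among 1700 genes whose genotype means spanned at least 1 on the log2 scale. Genes with a smaller span were not searched, though Tnf, Cd40lg, Fasl, Tnfsf11 and Tnfsf14 had a smaller span themselves. Lta was most like Il21r, the IL-21 receptor gene (Pearson r = 0.996), Abcb1a (0.993) and Sema4c (0.991), and Ltb most like Fam110a (0.996), Chchd10 (0.996) and 4930523C07Rik (0.994). For Tnfsf8 these were Ptpn4 (0.999), Slc37a2 (0.998) and the prion protein gene Prnp (0.998), and for Tnfsf11 Mrpl50 (0.994), Cgref1 (0.987) and Ddx21 (0.984). Tnfsf14 was most like the IL-23 receptor gene Il23r (0.98), Esm1 (0.976) and Pkdcc (0.976), of which Il23r stood at 22.8 FPKM in double-null, 5.24 in STAT6-null, 6.08 in T-bet-null and 4.29 in WT cells. Fasl was most like Ddx26b (0.993), Macf1 (0.991) and Syne1 (0.988), Cd40lg like Pcbp3 (0.951), Spock2 (0.94) and the IL-9 receptor gene Il9r (0.936), and Tnf like Cxcl10 (0.911), Maff (0.874) and Rgs14 (0.872). The 8 libraries fall into 4 genotypes, so these values describe the pattern only.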

How the data were processed

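The deposited table holds FPKM values, made by the authors with Cufflinks and build mm10, per the submitters' processing notes, with RefSeq genes. As for aligner, versions and strandedness: not given in the sources used here. All 11906 lines lie above 0.1 FPKM in every library, so genes low in any library are not analysed here. For the 43 symbols with more than 1 line, the most abundant line was kept, and 17 lines with date-like names were set aside. Absolute depth is not printed in the table. From the steps of 507 genes under 0.5 FPKM, the depth relative to WT replicate 1 was 0.856 to 1.04, and precision was taken from the spread between libraries. Of these genes, 62 to 80 per library matched the depth chosen, against a median of at most 5 over the depths tried.

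limma 3.58.1 in R 4.3.3 was run on log2(FPKM + 1), where fold changes of low genes are understated, for 10266 genes with at least 1 FPKM in at least 2 libraries. The 4 genotype means were fitted together over the 8 libraries, leaving 4 residual degrees of freedom, with an intensity trend, and 7 comparisons were adjusted by the Benjamini-Hochberg method over all genes, two-sided. Calls needed an adjusted p below 0.05. The script was tested on simulated data. Gene positions and promoters are from RefSeq tables of GRCm38.p6, the assembly of mm10. The labels do not say whether both libraries of a genotype are separate animals, so p-values measure the spread between these libraries, which may be technical.

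Members, gene lists and tests were chosen with earlier results of these data known. All 8 members are named. From each gene list the text names at most the 3 called genes with the largest change per mutant, or all where 5 or fewer were tested, and any receptor of a member. Outside this rule, Zfp36 is named beside its relative Zfp36l1. The 3 genes most like each member by Pearson r are named too. Alternatives were another pseudocount (0.1), no filter, a filter of 5 FPKM, other scalings, a replicate block, leaving out each library and, chosen after seeing the data, leaving out WT.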

Additional observations from a re-analysis of the deposited data

Results flagged for a closer look

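The interaction test called a difference in the effect of STAT6 loss between cells with and without T-bet for 7 of the 8 ligand genes. The interaction, the effect in T-bet-null cells minus that in T-bet-sufficient cells on the log2 scale, was 0.34 for Tnf, 0.37 for Lta, 0.63 for Ltb, 0.33 for Cd40lg and 0.35 for Tnfsf14, and -0.92 for Tnfsf8 and -0.46 for Tnfsf11. Among all genes tested, 29.6% had a positive and 27.7% a negative interaction called, so such differences were common in these libraries. All 7 interactions use the WT libraries.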

How the results depend on the processing

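Over 8 genes, 7 comparisons and the alternatives run, 765 of 808 log2 fold changes kept their direction and their side of the threshold, 26 lost a call, 6 gained one and 11 changed sign. Quantile normalization lowered the positive interactions called to 2 of 8 genes, against 5, and raised to 2, against 1, the ligand genes called lower when STAT6-null cells were set against T-bet-null ones. It turned Cd40lg to 0.10 in T-bet-null cells against WT, -0.12 in double-null against T-bet-null cells and -0.0776 in the interaction. The cause was not tested. With each library left out in turn, double-null against STAT6-null cells had 1 to 2 genes called higher and 1 to 2 lower, and the interaction 3 to 5 positive and 1 to 2 negative. Changes near 0 crossed it: in double-null over STAT6-null cells Tnf ranged from -0.0942 to 0.0906, Fasl from -0.0553 to 0.0115 and Tnfsf8 from -0.0404 to 0.0348, and in STAT6-null over T-bet-null cells Ltb from -0.10 to 0.0641 and Tnfsf14 from -0.0973 to 0.0179. In these separate fits the lowest counts of genes called were 1625, against 3342 with all libraries (double-null against T-bet-null), 837 against 2040 (double-null against STAT6-null) and 1437 against 2794 (STAT6-null against T-bet-null). With the replicate block all 56 results for the ligand genes kept their call, and 7142 genes were called in T-bet-null cells against WT, where 7245 were called without it. Same-numbered libraries did not deviate together (r from -0.0899 to 0.0908), so the numbers are not treated as pairs. Leaving the WT libraries out of the fit, an alternative chosen after seeing the data, changed no ligand call between the mutants. With 2 libraries per genotype, small changes such as those of Tnf and Cd40lg are at the limit of what can be told.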
